A study of Mus musculus with 4 samples.

Results

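The spots described here were the 3% of each brain section with the largest share of UMI (unique molecular identifiers, 1 per captured probe molecule) from 5 genes of surface and endfoot astrocytes, Myoc, Aqp4, Gja1, Hopx and Lcat. Spots under tissue with at least 1000 UMI were ranked by that share within their own section. This gave 358 astrocyte-rich spots of 11929 ranked spots: 95 of 3150 and 93 of 3100 in control replicates 1 and 2, and 91 of 3030 and 79 of 2649 in rNLS8 replicates 1 and 2. Wherever 4 values follow each other below, they stand in this order of sections. The limit of 1000 UMI left out 812, 243, 3 and 7 of 3962, 3343, 3033 and 2656 spots under tissue. The ranked spots thus leave out more of the control tissue, also in the shares at the tissue border below.

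The study profiled formalin-fixed, paraffin-embedded brain sections of 5 µm from 11-week-old mice with the Visium array, on which each spot holds the RNA of several cells. The groups were 2 control and 2 rNLS8 mice, 1 section each, all sampled 3 weeks after doxycycline was withdrawn. In the rNLS8 line, as background, a neurofilament heavy chain promoter drives a tetracycline-controlled activator, and withdrawal of doxycycline turns on a human TDP-43 that lacks its nuclear localization signal, mainly in neurons. The labels do not say which of these alleles the controls carried. Within a genotype the labels tell the sections apart by replicate number and sex alone. The p-values between the groups thus rest on 2 sections each, whose spread may be partly technical.

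Astrocytes close off the brain surface with a layer of endfeet, the glia limitans, which lies on a basement membrane under the pia. These endfeet carry the water channel aquaporin 4 (Aqp4), and gap junctions of connexin 43 (Gja1) couple the cells. Myocilin (Myoc) and the homeobox factor Hopx mark subsets of astrocytes, and Lcat esterifies cholesterol on the lipoproteins that astrocytes secrete. Astrocytes of the surface and of white matter hold more of the intermediate filament protein GFAP than those of grey matter, and astrocytes that respond to injury raise it.

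Tardbp, the gene of TDP-43, had 0, 0, 197 and 138 UMI over the whole sections and 0, 0, 4 and 5 in the astrocyte-rich spots. A count of 0 allows up to 3 counts. All Tardbp UMI thus lay in the rNLS8 sections, as their labels have it. The probe set is not stated in the deposited matrices, so it is unknown whether these counts include the mouse gene. The 0 counts in the controls are therefore no measure of mouse Tardbp RNA. By its labels, replicate 1 of each group was female and replicate 2 male. The 4 Y-linked genes Ddx3y, Eif2s3y, Kdm5d and Uty summed to 0, 107, 137 and 139 counts per 1000000 UMI (CPM), so the library labelled rNLS8 replicate 1 went against its label, and the only section without Y-linked counts was a control. Values without that library stand beside the main results below. The astrocyte-rich spots of a section summed to 257897, 420893, 555051 and 445644 UMI, with a median of 2822, 4345, 5834 and 5590 UMI per spot. The remaining spots held a median of 6323, 6689, 9879 and 6373.5 UMI, so the chosen spots were shallower than the rest in all 4 sections and shallower in control than in rNLS8. The part of this depth difference in the results was not tested.

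The 5 selecting genes set the members, so their levels are given as a description. The 5 genes together took a median of 25.8, 24.0, 17.1 and 23.7 of 10000 UMI in the astrocyte-rich spots against 3.79, 3.84, 3.69 and 4.97 in the remaining spots. The last spot inside the limit and the first outside were 19.9 and 19.9, 17.9 and 17.9, 13.5 and 13.5, and 19.1 and 19.1 of 10000. There was thus no gap at the limit, and the limit was lowest in rNLS8 replicate 1. At most 3 UMI of the selecting genes placed 12, 11, 4 and 2 of the spots among the members. Myoc, a secreted glycoprotein, stood at 1117, 877, 614 and 554 CPM in the summed astrocyte-rich spots and at 48.7, 23.5, 26.2 and 33.2 CPM in the remaining spots. Gja1 stood at 1373, 1407, 1005 and 1584 CPM against 276, 291, 274 and 355 CPM. Aqp4 stood at 105, 166, 132 and 148 CPM against 19.3, 25.5, 31.4 and 45.6 CPM, and it was found in 22.1%, 48.4%, 53.8% and 53.2% of the spots. Myoc and Gja1 were the genes found in most of these spots, with Myoc in 84.2%, 66.7%, 76.9% and 69.6% and Gja1 in 96.8%, 98.9%, 97.8% and 100%. In the authors' deposited table of Moran's I, a score of how far neighbouring spots resemble each other, Myoc scored 0.154, 0.233, 0.192 and 0.195 and Gja1 0.108, 0.131, 0.117 and 0.0927. Aqp4 scored 0.0178, 0.0511, 0.0341 and 0.0288 in the same table.

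Part of the astrocyte-rich spots lay in arcs along the meninges in each section, and a part that differed between sections lay away from them. At the outermost ring of tissue spots lay 0%, 0%, 1.10% and 7.59% of them, against 1.08%, 3.46%, 3.95% and 8.48% of the remaining spots. Their share was thus lower by 2.07 percentage points on average, in 4 of 4 sections (exact two-sided permutation test over paired sections, p = 0.125, the smallest it can give). Within 2 steps of the border the order did not hold, with 0%, 4.30%, 7.69% and 17.7% against 2.09%, 7.12%, 7.66% and 16.6% (exact permutation test, p = 0.5). A median of 9, 7, 6 and 4 array steps separated them from that border, against 16, 12, 15 and 7 steps for the remaining spots. To find the surface itself, the top 3% of spots by a list of 20 genes of meningeal fibroblasts and arachnoid were marked as a meningeal line. On that line lay 45.3%, 40.9%, 46.2% and 39.2% of the astrocyte-rich spots. Within 1 array step of it lay 77.9%, 49.5%, 68.1% and 60.8%, against 7.95%, 7.45%, 6.67% and 10.6% of the remaining spots (exact permutation test over paired sections, p = 0.125, the smallest it can give). Line and astrocyte-rich spots were both chosen by expression, and the line after seeing the data, so these shares are a description. More than 5 steps from the line lay 5, 40, 12 and 20 of the astrocyte-rich spots. Another astrocyte-rich spot was next to 71.6%, 54.8%, 75.8% and 54.4% of them, while 9.0%, 10.8%, 9.87% and 12.8% of the remaining spots had one as a neighbour. The name brain surface therefore covered only a part of these spots, and the smallest part in control replicate 2.

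**Figure D1:**
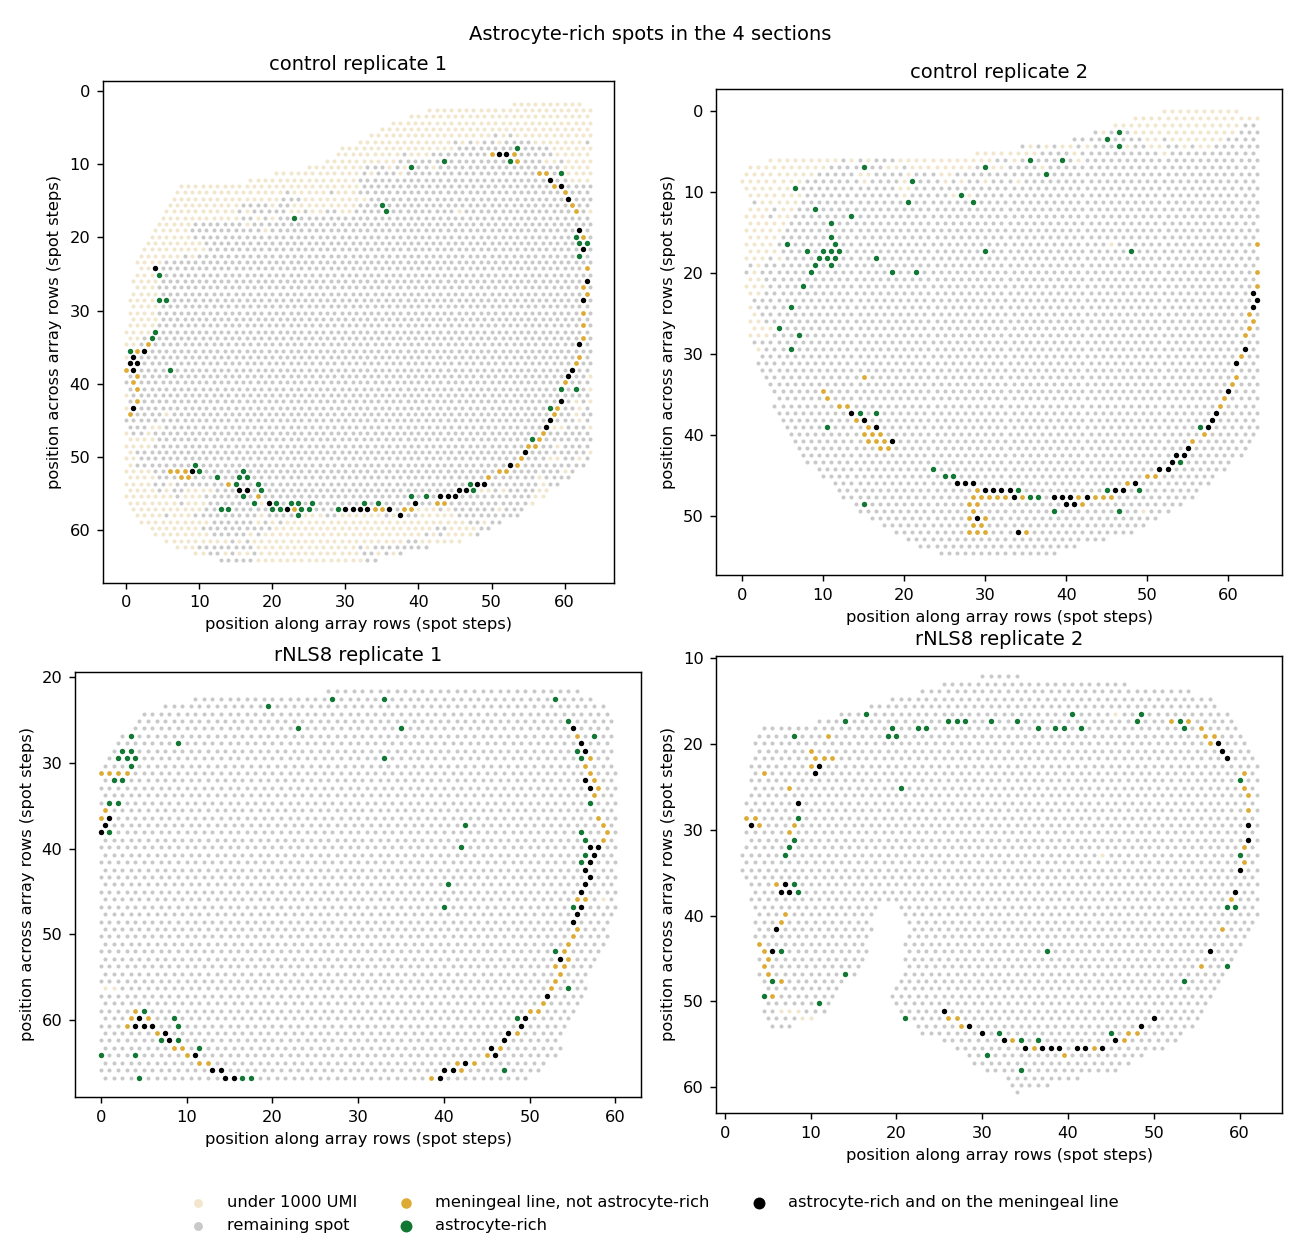
Position of each spot under tissue on the array in steps between spots, in 4 panels by section; black and green are astrocyte-rich spots on and off the meningeal line, ochre is the rest of that line, grey the remaining spots and pale spots those under 1000 UMI. The 95, 93, 91 and 79 astrocyte-rich spots lie partly in arcs along the meningeal line, with 40 in control replicate 2 and 20 in rNLS8 replicate 2 more than 5 steps away from it.

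Beyond the selecting genes, the spots exceeded the rest of the brain most in RNA of the meninges, among all cell types listed. The rule's genes are astrocytic, but spots of this size at the surface hold the pia as well, so the comparison with the remaining spots is a description without a test. Of 1070 genes with at least 50 counts in the astrocyte-rich spots of every section, 213 were higher than in the remaining spots in all 4 sections and 38 were at least 2-fold higher in all 4. The leading gene was Foxc2, a forkhead factor of mesenchyme, at 202, 169, 186 and 267 CPM against 7.18, 8.38, 9.31 and 17.6 CPM. Col1a2, a chain of type I collagen, stood at 768, 725, 674 and 1097 CPM against 54.2, 45.2, 56.3 and 109 CPM. Ptgds, the prostaglandin D synthase of the arachnoid, reached 12253, 8876, 12138 and 14000 CPM against 765, 575, 1008 and 1528 CPM. Fmod, Islr, Slc22a6, Slc6a20a, Igf2, Igfbp2 and Fn1 followed, then Cd74, the invariant chain of MHC class II, and Foxc1. Summed over the 20 listed meningeal genes, the level was 14.4, 14.1, 11.6 and 8.85 times that of the remaining spots. The 13 genes of border macrophages and leukocytes were 11.2, 9.16, 7.63 and 5.66 times higher in sum, although 8, 8, 6 and 4 of them were at 0 in the astrocyte-rich spots. Cd74 carried most of that sum, at 213, 171, 225 and 269 CPM against 19.2, 15.5, 23.4 and 48.6 CPM, while the border macrophage marker Lyve1 was at 0, 0, 0 and 2.24 CPM.

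The astrocyte genes that the rule did not use were also higher, by less. Of 20 general astrocyte genes with at least 50 counts in the astrocyte-rich spots of every section, 19 were higher in all 4 sections. That minimum favours genes high in these spots. Below it, Aldh1l1, Ppp1r3c, Gpr37l1, Hepacam, Sox9 and Gpc5 were also higher in all 4, while Slc7a10, Cldn10 and Chrdl1 were not. In sum, without a minimum, the general astrocyte list stood at 1.89, 1.64, 1.39 and 1.45 times the remaining spots. Gjb6, connexin 30, stood at 237, 328, 276 and 296 CPM against 49.2, 76.1, 73.1 and 80.1 CPM. The glutamate transporter genes were closer to the rest, with log2 ratios of 1.14, 1.11, 0.90 and 0.96 for Slc1a3 and 0.48, 0.19, 0.08 and 0.08 for Slc1a2. Of the genes of surface and fibrous astrocytes, Vim, Fabp7, Agt, Timp4, Fbln5, Cd44 and Nes were higher in all 4 sections. Crym, Thbs4 and Itih3 were not. Each of these genes had fewer than 50 counts in some section. All 9 genes of that list with at least 50 counts in every section were higher in all 4. Among them were Id1 and Id3, inhibitors of DNA binding that act downstream of BMP signals, with log2 ratios of 2.17, 2.14, 1.94 and 2.41 for Id1 and 2.38, 2.38, 2.24 and 2.24 for Id3. The lipid carriers Apoe and Apod had log2 ratios of 1.52, 1.5, 1.24 and 1.27 and of 2.25, 2.24, 1.97 and 1.89. The endfoot genes beyond Aqp4 were higher in sum by 1.43, 1.73, 1.40 and 1.47 times, although the potassium channel gene Kcnj10 was higher in 3 of 4 sections, with log2 ratios of 0.35, 0.77, 0.34 and -0.09. Basement membrane genes summed to 1.93, 2.58, 2.21 and 2.13 times the remaining spots, retinoid and thyroid handling genes to 4.63, 3.31, 3.18 and 2.98 times, and genes of endothelium and mural cells to 1.70, 1.72, 1.47 and 1.56 times. The label astrocyte-rich thus held for the general astrocyte markers in sum, though not for each of them, beside a larger excess of meningeal ones.

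Neuronal genes were lower. All 11 presynaptic and axonal genes with at least 50 counts in every section were lower in all 4 sections, as were 498 of the 1070 genes with that many counts, and the list summed to 0.70, 0.71, 0.73 and 0.66 of the remaining spots. Excitatory neuron genes summed to 0.75, 0.67, 0.82 and 0.68, and striatal neuron genes to 0.62, 0.59, 0.64 and 0.79. Sst, the somatostatin gene of a class of interneurons, had the lowest ratio that held in all 4 sections, at 364, 499, 454 and 411 CPM against 729, 870, 844 and 709 CPM. Galnt9, Tiam2, Mtmr7, 1110032F04Rik, Plcl2, Spock3 and Diras2 were also among the 10 genes with the lowest ratios. Myelin genes were not lower as a group except in rNLS8 replicate 2, at 1.10, 0.97, 1.14 and 0.63 times. Choroid plexus genes summed to 0.80, 1.48, 1.02 and 1.85 times the remaining spots, with 6, 5, 5 and 4 of the 9 listed genes at 0. Ependymal genes summed to 1.59, 1.93, 1.95 and 1.67 times, with 5, 2, 2 and 5 of 14 at 0.

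**Figure D2:**
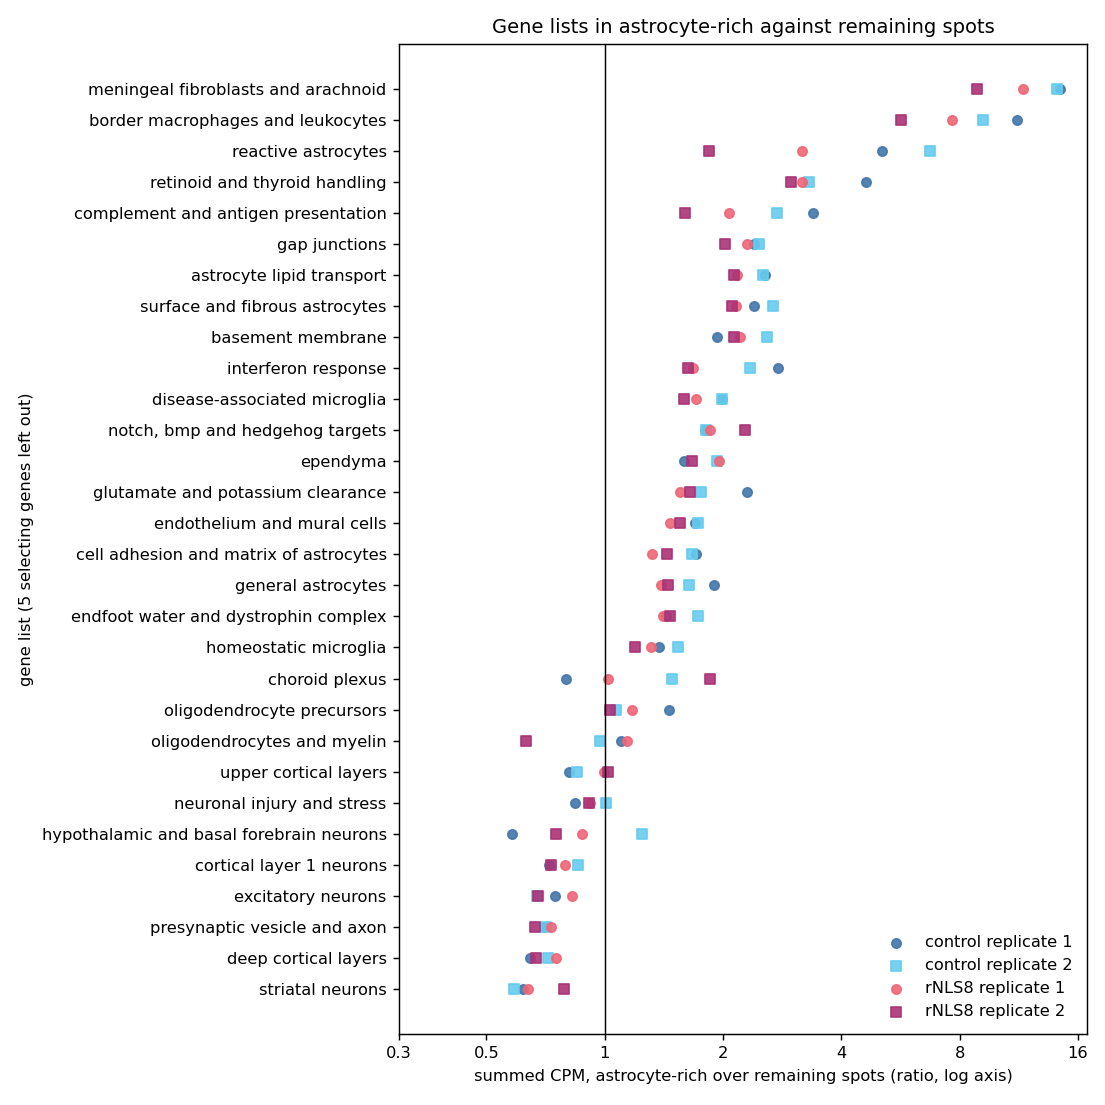
Summed CPM of each gene list in the astrocyte-rich spots divided by that in the remaining spots, on a log axis, 1 point per section. Meningeal genes stand highest at 8.85 to 14.4 times, general astrocyte genes at 1.39 to 1.89 times, and presynaptic genes below 1 in all 4 sections.

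The astrocyte-rich spots were not of 1 kind. The 43, 38, 42 and 31 spots on the meningeal line held 26.4, 26, 19.4 and 15.1 times the meningeal gene level of the remaining spots, and the others held 3.81, 2.25, 2.60 and 2.91 times. General astrocyte genes stood at 1.87, 1.62, 1.35 and 1.26 times on the line and at 1.91, 1.67, 1.43 and 1.63 times off it, with the widest gap in rNLS8 replicate 2. The line was chosen by the meningeal genes, so the first difference describes that choice. The spots more than 5 steps from the line held little of the meningeal RNA in 3 of the 4 sections, at 1.65, 1.42, 0.97 and 2.18 times, but kept Gfap at 523, 2021, 1854 and 2030 CPM. In rNLS8 replicate 1 these distant spots had 3.13 times the myelin gene level of the remaining spots, and in control replicate 1 they were only 5 shallow spots with a median of 1439 UMI. Over all ranked spots, Spearman's rho between a gene's share and the summed share of the selecting genes was 0.28, 0.35, 0.27 and 0.36 for Apoe, 1 of the 10 genes most like them. Cst3, Plpp3, Mt1, Ptgds, Igfbp5, Atp1b2, Clu and Aldoc were others of the 10, down to a lowest rho of 0.18 for Aldoc. These weak correlations are given as a description over 3150, 3100, 3030 and 2649 spots that share libraries and depth.

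Within the astrocyte-rich spots, the genes that rose in rNLS8 were B2m, the interferon-inducible Bst2, Ifi27 and Lgals3bp, and Pdrg1, Cyp26b1 and Nr4a1, while Sowaha, Rgs4, Scg5, Prkcb, Nefl and others fell. The summed counts were compared with edgeR's quasi-likelihood test over 7517 genes, and 21 passed an adjusted p of 0.05 (0.279%), 7 of them higher (0.0931%) and 14 lower (0.186%) in rNLS8. A further measure, whether the 2 rNLS8 sections lie wholly above or wholly below the 2 control sections, is weak with so few sections, since 20% of all tested genes did so upward and 20% downward. Without regard to direction this held for 39.9% of them. At an unadjusted p of 0.05 there were 717 genes (9.54%). The count depended on single libraries: with control replicate 1 left out 91 genes passed, with control replicate 2 left out 330, with rNLS8 replicate 1 left out 10 and with rNLS8 replicate 2 left out 3. Among these were 19, 19, 7 and 2 of the 21, and the last 2 were B2m and Igfn1. No gene passed when the astrocyte-rich spots were restricted to those within 2 steps of the meningeal line (edgeR, 480 at an unadjusted p of 0.05). In the summed spots, fewer cells of a type and less RNA per cell cannot be told apart.

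B2m, the light chain of MHC class I (chromosome 2, 122147687 to 122153082, build GRCm38.p6), had the smallest adjusted p among the genes that rose. Its normalised level in the astrocyte-rich spots was 179, 138, 528 and 648 CPM. Both rNLS8 sections stood above both controls, with a log2 fold change of 1.92 ± 0.25 (SE, edgeR quasi-likelihood test, adjusted p = 1.67e-04). It passed in 21 of the 22 alternatives run, with log2 fold changes of 1.66 to 2.17, and without rNLS8 replicate 1 it was 2.04 (adjusted p = 2.11e-04). The exception was the restriction to spots near the meningeal line, with 1.81 (edgeR adjusted p = 0.0540).

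Of 29 interferon-response genes in the files, 13 passed the filter on low counts and were tested. The filter used the groups, so in any list a gene could be tested through the counts of 1 group alone. Irf7, with 1, 1, 13 and 18 UMI, was such a gene, so the values over the 13 lean towards genes high in rNLS8. Of the 13, 3 rose, none fell and 10 did not pass. Without overlap, 10 were higher in both rNLS8 sections, beside 20% of all genes. The median log2 fold change of the 13 was 1.58, against -0.00 over all genes tested. Bst2, the membrane tether tetherin (chromosome 8, 71534255 to 71537472), stood at 21.3, 47.5, 120 and 181 CPM, with the controls below both rNLS8 sections (log2 fold change 1.99 ± 0.36 SE, edgeR adjusted p = 0.00652). Ifi27, an interferon-inducible mitochondrial protein, stood at 76.8, 82.5, 209 and 275 CPM (log2 fold change 1.58 ± 0.28 SE, edgeR adjusted p = 0.00526). Lgals3bp, a secreted galectin ligand, rose the most, from 12.8 and 12.5 to 53.6 and 82.5 CPM (log2 fold change 2.38 ± 0.50 SE, edgeR adjusted p = 0.0284). Few counts lay behind it in the controls, 3 and 5 UMI. Bst2 passed in 16 of 22 alternatives, Ifi27 in 19 of 22 and Lgals3bp in 13 of 21. Without rNLS8 replicate 1 their log2 fold changes were 2.28, 1.77 and 2.67, and without rNLS8 replicate 2 they were lower, at 1.70, 1.38 and 2.06. Irf7, the master interferon regulatory factor, was at 4.27, 2.50, 24.0 and 41.2 CPM and did not pass (edgeR adjusted p = 0.110), and neither did Oasl2 at 51.2, 22.5, 57.3 and 156 CPM (edgeR adjusted p = 0.155). The remaining spots of the same sections had a median log2 fold change of 2.33 over the same 13 genes, and none of 13405 genes passed there (0%), with 2103 at an unadjusted edgeR p of 0.05 (15.7%). B2m and Bst2 had log2 fold changes of 2.74 and 3.02 in those spots, each with an edgeR adjusted p of 0.119. For Ifi27 and Lgals3bp they were 1.6 and 2.4 there, close to those in the astrocyte-rich spots.

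The bases before the start of B2m and Bst2 are shown because both hold the letters to which interferon-activated factors are known to bind. The motif searched was GAAA, any 2 bases and GAAA again, on both strands, in the 250 bases before the start in RefSeq's promoters (GRCm38.p6). It was found in 2.98% of 32851 promoters. Of the genes that rose, only B2m, Bst2, Lgals3bp and Ifi27 were looked up, and 3 of these 4 were matched by symbol. Pdrg1, Cyp26b1 and Nr4a1 were not searched, so the matches do not describe the genes that rose as a set. The match begins 139 bases before the start of B2m, and 2 overlapping matches begin 130 and 124 bases before the start of Bst2. Capitals mark the matches, and each stretch runs 5′ to 3′ on the gene's own strand, chr2:122147523-122147582 on the plus strand and chr8:71537562-71537627 on the minus strand.
B2m: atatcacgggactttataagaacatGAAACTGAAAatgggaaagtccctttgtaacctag
Bst2: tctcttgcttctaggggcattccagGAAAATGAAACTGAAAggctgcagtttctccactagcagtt
These letters were not found in that window of Lgals3bp. A match describes the sequence and is not a measured binding site.

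Of 12 genes of complement and antigen presentation, 1 rose, B2m, and 11 did not pass. Their median log2 fold change was 0.56. The complement starter C1qa, made by microglia, was at 363, 335, 436 and 564 CPM (log2 fold change 0.52 ± 0.23 SE, edgeR adjusted p = 0.473), C1qc at 137, 133, 211 and 273 CPM and C1qb at 98.1, 75.0, 129 and 193 CPM. All 3 lay above the controls in both rNLS8 sections without passing. H2-D1, an MHC class I heavy chain, was at 34.1, 0, 66.5 and 0 CPM, so both replicates labelled 2 had no count. Of 19 genes of disease-associated microglia, 2 rose, B2m and Lgals3bp, both also on other lists, and 17 did not pass, with a median log2 fold change of 0.67. Ctss, a lysosomal protease, was at 55.4, 163, 242 and 289 CPM (log2 fold change 1.17 ± 0.30 SE, edgeR adjusted p = 0.127). Mpeg1, a pore-forming protein of phagocytes, was at 25.6, 20, 72.1 and 73.3 CPM (log2 fold change 1.70 ± 0.42 SE, edgeR adjusted p = 0.0992). The 8 tested homeostatic microglia genes did not pass, with a median of 0.19, and the list summed to 337, 511, 501 and 613 CPM. Of the border macrophage genes Mrc1 was at 4.27, 7.5, 24.0 and 39.0 CPM (edgeR adjusted p = 0.212). The part of these cells in the rise of B2m was not tested.

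The other 3 genes that rose were on none of the immune lists. Pdrg1, named for its response to p53 and DNA damage, was at 115, 120, 316 and 408 CPM (log2 fold change 1.61 ± 0.26 SE, edgeR adjusted p = 0.00220). It passed in 20 of 22 alternatives, and its log2 fold change was 1.78 without rNLS8 replicate 1 (edgeR adjusted p = 0.00554) and 1.62 in the remaining spots (edgeR adjusted p = 0.0913). Cyp26b1, an enzyme that degrades retinoic acid, was at 25.6, 27.5, 81.3 and 103 CPM (log2 fold change 1.76 ± 0.40 SE, edgeR adjusted p = 0.0482), and at 0.54 in the remaining spots. It passed in 7 of 21 alternatives and was lost without either rNLS8 section, with adjusted p of 0.0952 and 0.882. It was the only 1 of 8 tested genes of retinoid and thyroid handling that rose, and the retinol receptor gene Stra6 did not pass at 85.3, 60, 33.3 and 16 CPM (edgeR adjusted p = 0.155). Nr4a1, an immediate early nuclear receptor, was at 119, 67.5, 236 and 202 CPM (log2 fold change 1.30 ± 0.29 SE, edgeR adjusted p = 0.0471), and passed in 7 of 22 alternatives. Without rNLS8 replicate 1 Nr4a1 did not pass, at 1.15 (edgeR adjusted p = 0.619).

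Several of the 14 genes that fell are known from neurons. The remaining spots had falls of similar size, although no gene passed there. Their log2 fold changes were -1.56 for Sowaha, -1.39 for Rgs4, -1.49 for Prkcb, -1.14 for Nefl and -1.47 for Calb1. In the test of the difference between both kinds of spots, given below, none of the 14 passed. Sowaha was at 320, 313, 97.9 and 84.8 CPM (log2 fold change -1.78 ± 0.25 SE, edgeR adjusted p = 4.41e-04) and passed in 20 of 22 alternatives. Rgs4, a regulator of G protein signalling, was at 900, 705, 338 and 245 CPM (log2 fold change -1.45 ± 0.23 SE, edgeR adjusted p = 0.00220). Scg5, a chaperone of prohormone processing, was at 563, 483, 214 and 176 CPM, and the kinase gene Prkcb at 606, 493, 218 and 204 CPM. In all 4 of these genes both rNLS8 sections lay below both controls. Nefl, the neurofilament light chain, was at 444, 405, 209 and 151 CPM (log2 fold change -1.22 ± 0.24 SE, edgeR adjusted p = 0.0153). Calb1, the calcium buffer calbindin, was at 367, 318, 181 and 115 CPM. Dgkb, Rasgef1a, Nrn1, Icam5, Arhgap33 and Hpcal4 fell by 1.25, 1.27, 1.2, 1.12, 1.15 and 1.08 on the log2 scale. Without rNLS8 replicate 1, Sowaha and Rgs4 were the genes among the 14 that still passed. The last 2 of the 14 had few counts. Igfn1 had 21, 13, 2 and 6 UMI, and Gnrh1, the gonadotropin-releasing hormone gene of scattered forebrain neurons, had 7, 10, 1 and 0. For Gnrh1 the control level was 25.1 times that of rNLS8, with an exact 95% interval from 3.93 to 1047 that covers counting error only.

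By list, 2 of 15 presynaptic and axonal genes fell, Prkcb and Nefl, none rose and 13 did not pass. Their median was -0.50, and 10 lay below the controls without overlap, beside 20% of all genes. Snap25 was at 2431, 2684, 1927 and 1480 CPM without passing (log2 fold change -0.59 ± 0.23 SE, edgeR adjusted p = 0.414). Of 6 upper-layer genes 1 fell, Calb1, and of 8 striatal genes none passed, with medians of -0.49 and -0.60. The same lists had medians of -0.55, -0.82 and -0.95 in the remaining spots. The excitatory neuron list had a median of 0.07 with none of 8 genes passing.

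**Figure D3:**
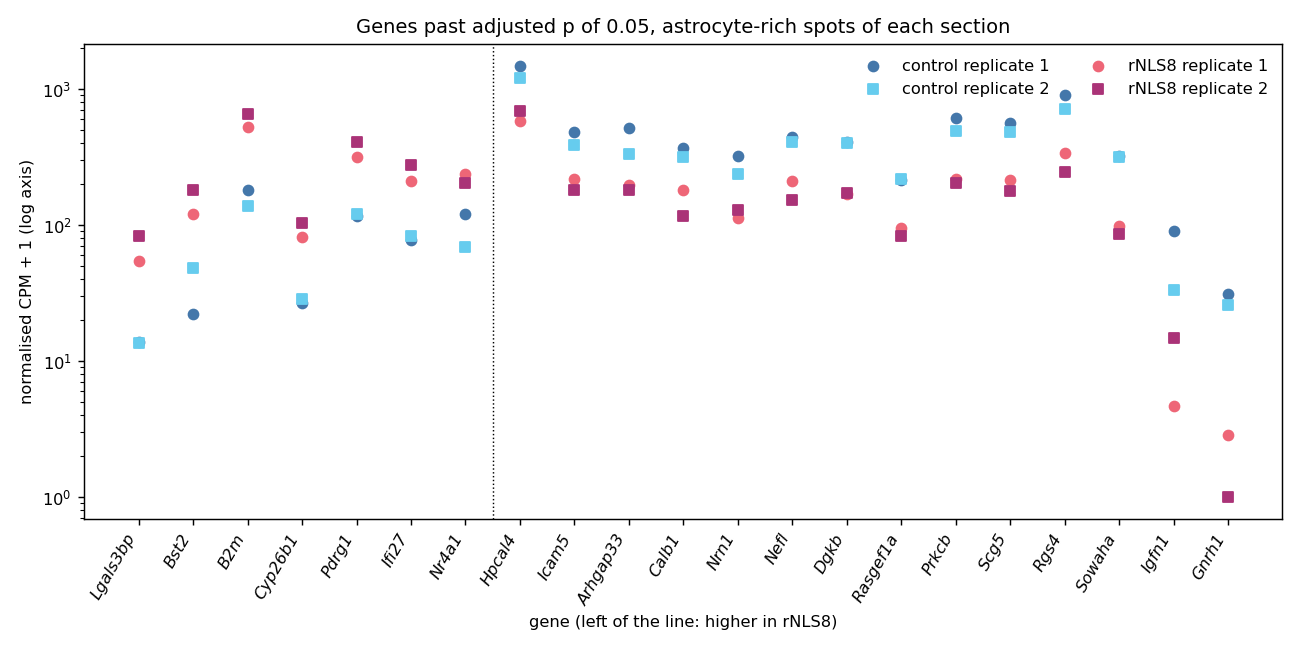
Normalised CPM plus 1, on a log axis, of the 21 genes that passed, in the summed astrocyte-rich spots of each section (1 point per section). In each gene the 2 rNLS8 sections lie on the same side of both controls, with B2m at 528 and 648 CPM against 179 and 138.

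The astrocyte genes themselves did not pass. None of 28 general astrocyte genes tested rose or fell, with a median log2 fold change of -0.23, and 10 lay below the controls without overlap and 2 above, beside 20% each over all genes. Ndrg2, an astrocyte cytoplasmic protein, was at 2277, 1541, 1175 and 1283 CPM (log2 fold change -0.63 ± 0.23 SE, edgeR adjusted p = 0.368), and Slc1a2 at 2985, 3312, 2729 and 3306 CPM (-0.06 ± 0.23 SE, edgeR adjusted p = 0.968). None of 18 tested genes of surface and fibrous astrocytes passed, with a median of -0.01. Id4 was at 1113, 938, 602 and 642 CPM (log2 fold change -0.72 ± 0.22 SE, edgeR adjusted p = 0.208). None of 15 reactive astrocyte genes passed, with a median of 0.08. Gfap was at 1160, 1548, 1561 and 1702 CPM (log2 fold change 0.26 ± 0.23 SE, edgeR adjusted p = 0.779), and C4b, a complement protein that reactive astrocytes make, at 286, 148, 233 and 183 CPM (0.00 ± 0.27 SE, edgeR adjusted p = 0.996). S100a6 had the nearest approach to the threshold, at 68.2, 97.6, 163 and 167 CPM (log2 fold change 0.95 ± 0.29 SE, edgeR adjusted p = 0.205). No gene passed among the 12 of glutamate and potassium clearance (median -0.08), the 13 of the endfoot complex (0.15), the 5 gap junction genes (0.39), the 12 basement membrane genes (0.15), the 12 of astrocyte lipid transport (0.11), the 14 targets of Notch, BMP and hedgehog signals (0.00), the 15 of astrocyte adhesion and matrix (0.04) or the 19 meningeal genes (0.23).

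In the remaining spots the reactive astrocyte list had a median log2 fold change of 1.03, so the difference between both kinds of spots was tested itself, in 1 edgeR model of the 8 sums with section as a block. Of 13147 genes, 8 passed (0.0609%), with the rNLS8 effect larger in the astrocyte-rich spots for 3 (0.0228%) and smaller for 5 (0.038%), and 709 (5.39%) were below an unadjusted p of 0.05. Among the 5 were Gfap, C4b, Eln and Vim, of which Gfap, C4b and Vim are on the list of reactive astrocytes, and the 3 were Alcam, Nptx1 and Ccn3. This model gave all genes 1 common spread around the trend, and its errors take no account of how far a gene's own sections lie apart. Other tests called fewer: limma on the log2 ratio of both kinds of spots per section called 5 genes, Gfap, C4b, Eln and Alcam among them, DESeq2 called C4b alone, and edgeR with bias-adjusted dispersions called none, with 698 genes at an unadjusted p of 0.05.

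Gfap (chromosome 11, 102887336 to 102897200) was at 1058, 1413, 1473 and 1592 CPM in the astrocyte-rich spots and at 173, 148, 404 and 924 CPM in the remaining spots on the normalised scale of this joint model. In the astrocyte-rich spots control replicate 2 came near the rNLS8 sections and control replicate 1 lay lower, while in the remaining spots both rNLS8 sections lay above both controls. On the log2 ratios made for limma, the astrocyte-rich spots exceeded the rest by 2.75, 3.37, 1.90 and 0.80. These ratios had their own normalisation and a prior count of 2, so they depart slightly from the CPM just given (2.61, 3.25, 1.87 and 0.78 for Gfap). The log2 excess of other genes below is on the scale made for limma too. The rNLS8 effect on Gfap was 0.32 in the astrocyte-rich and 1.93 in the remaining spots, a difference of -1.64 ± 0.13 (SE, edgeR adjusted p = 1.75e-34). The difference was -1.67 ± 0.60 with DESeq2 (adjusted p = 0.9995), -1.72 ± 0.22 with limma (adjusted p = 2.85e-04) and -1.64 ± 0.26 with bias-adjusted edgeR (adjusted p = 0.0656). With 1 section left out it ranged from -2.29 (rNLS8 replicate 1) to -1.19 (rNLS8 replicate 2) and passed each time, and was -0.93 ± 0.12 against the remaining spots at most 2 steps from an astrocyte-rich spot (edgeR adjusted p = 8.81e-11). Against the remaining spots next to the meningeal line it was -0.67 ± 0.15 (edgeR adjusted p = 0.0978), and no gene passed there (440 at an unadjusted edgeR p of 0.05). Gfap was detected in 75.8%, 78.5%, 96.7% and 96.2% of the astrocyte-rich and in 48.5%, 51.4%, 86.9% and 94.3% of the remaining spots.

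C4b (chromosome 17, 34728139 to 34743902) was at 261, 135, 220 and 171 CPM in the astrocyte-rich spots and at 40.9, 27.7, 98.3 and 164 CPM in the remaining spots. In rNLS8 replicate 2 both kinds of spots thus had nearly the same level, and the log2 excess of the astrocyte-rich spots was 2.81, 2.39, 1.19 and 0.08. The difference of the rNLS8 effects was -1.83 ± 0.20 (SE, edgeR adjusted p = 5.00e-16), -1.90 ± 0.34 with DESeq2 (adjusted p = 2.07e-04) and -1.83 ± 0.29 with bias-adjusted edgeR (adjusted p = 0.0656). It was -2.52 with rNLS8 replicate 1 left out and -1.41 with rNLS8 replicate 2 left out, and passed both times. Against the remaining spots next to the meningeal line it was -0.94 ± 0.25 and did not pass (edgeR adjusted p = 0.597). Mouse C4b has a near-identical copy, C4a, and its level is uncertain where a probe reads both. Vim, an intermediate filament protein of astrocytes and meningeal cells, had a log2 excess of 2.48, 3.04, 2.18 and 1.83. It did not pass with DESeq2 or limma, or when control replicate 2 was left out (-0.36) or rNLS8 replicate 2 (-0.66). With rNLS8 replicate 1 left out the difference for Vim was -1.01 (edgeR adjusted p = 0.00415). Eln, the elastin of vessels and meninges, had an excess of 2.02, 3.27, 1.10 and 1.03. Its level in control replicate 2 was 331 CPM in the astrocyte-rich spots against 81.7, 45.3 and 101 in the other sections, and without that section it did not pass (edgeR adjusted p = 0.827). With rNLS8 replicate 1 left out the difference for Eln was -1.89.

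Alcam, an adhesion molecule, was at 245, 194, 242 and 268 CPM in the astrocyte-rich spots and at 160, 162, 94.6 and 82.9 CPM in the remaining spots, so the sections differed in the remaining spots. The difference of the rNLS8 effects was 1.10 ± 0.18 (SE, edgeR adjusted p = 1.02e-06). It did not pass when control replicate 2 or rNLS8 replicate 2 was left out (edgeR adjusted p = 0.115 and 0.176), nor when the spots on the meningeal line (0.67 ± 0.33) or Gja1 as a selecting gene (0.54 ± 0.19, edgeR adjusted p = 0.589) were left out. With rNLS8 replicate 1 left out the difference for Alcam was 1.18. Nptx1, a secreted synaptic pentraxin, was at 109, 174, 213 and 285 CPM against 308, 331, 226 and 388 CPM, and Ccn3, a matrix-bound signalling protein, at 502, 379, 502 and 699 CPM against 158, 104, 87.0 and 133 CPM. Neither gene passed when control replicate 1 (0.58 for Nptx1 and 0.51 for Ccn3), rNLS8 replicate 1 (0.58 and 0.51) or rNLS8 replicate 2 (0.96 and 0.67) was left out. The sign for Ccn3 turned when Gja1 was left out of the selection (-0.07) or when the spots on the meningeal line were left out (-0.24). Man1a and Slc4a10 came closest among the genes that did not pass (edgeR adjusted p = 0.0655 and 0.0935). The meningeal list differed between the sections too. Its excess over the remaining spots was 14.4, 14.1, 11.6 and 8.85 times, lower in both rNLS8 sections, whereas that of Alcam, Nptx1 and Ccn3 was higher there. A link between them was not tested. The list summed to 15991, 12229, 15590 and 19204 CPM in the astrocyte-rich spots and to 1110, 865, 1345 and 2169 CPM in the remaining spots, with 1, 0, 0 and 0 of 20 genes at 0 in the former. Without the astrocyte-rich spots on the meningeal line, the difference was -1.62 ± 0.17 for Gfap and -1.79 ± 0.29 for C4b (edgeR adjusted p = 7.13e-18 and 3.91e-06).

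**Figure D4:**
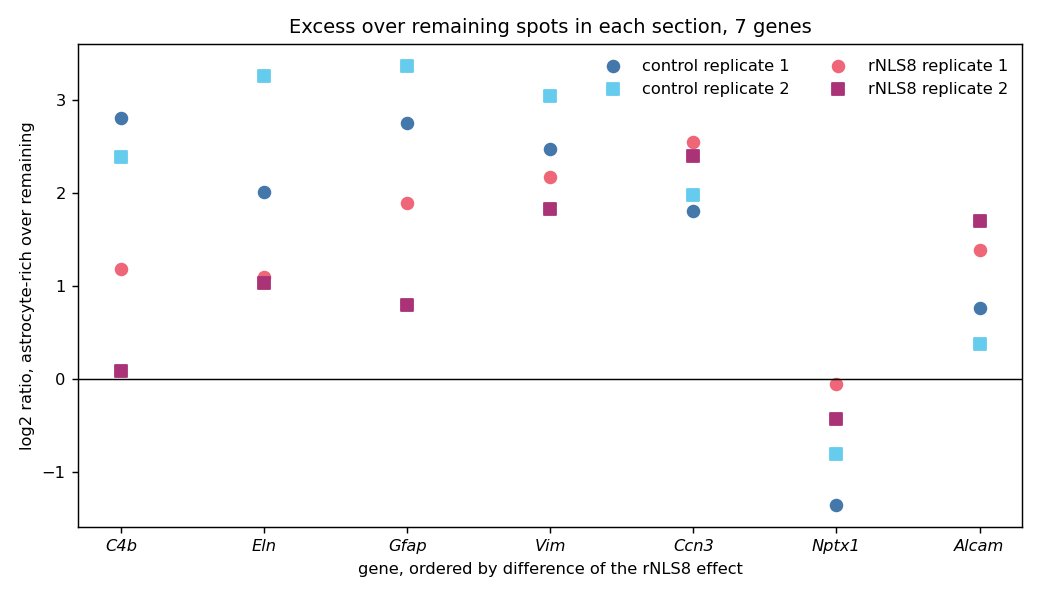
Log2 ratio of astrocyte-rich over remaining spots in each section, on the scale made for limma, for 7 of the 8 genes whose rNLS8 effect differed between both kinds of spots (1 point per section, above 0 is higher in astrocyte-rich spots). For C4b and Gfap the control sections lie at 2.39 to 3.37 and the rNLS8 sections at 0.08 to 1.90.

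With distance from the astrocyte-rich spots, Gfap declined in control from 1055 and 1471 CPM to 206 and 221 CPM at 2 steps and to 137 and 98.7 CPM at 6 or more steps. In rNLS8 it was 1522 and 1667 CPM in the astrocyte-rich spots and 587 and 688 CPM at 2 steps. At 6 or more steps the rNLS8 sections parted, with 318 CPM in replicate 1 and 1193 CPM in replicate 2. C4b was at 260, 140, 227 and 180 CPM in the astrocyte-rich spots and at 36.5, 19.1, 86.3 and 210 CPM at 6 or more steps, so in rNLS8 replicate 2 it was highest far from them. B2m was higher in rNLS8 at every distance, at 163, 131, 515 and 635 CPM in the astrocyte-rich spots and 34.6, 61.6, 287 and 478 CPM at 6 or more steps. Bst2 went in the same way from 19.4, 45.1, 117 and 177 CPM to 6.95, 9.38, 64.0 and 107 CPM. For B2m and Bst2 the astrocyte-rich spots thus stood highest in all 4 sections, and the gap between the groups was present at each distance. These are CPM of summed UMI without further normalisation, and no test was run on the profile.

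**Figure D5:**
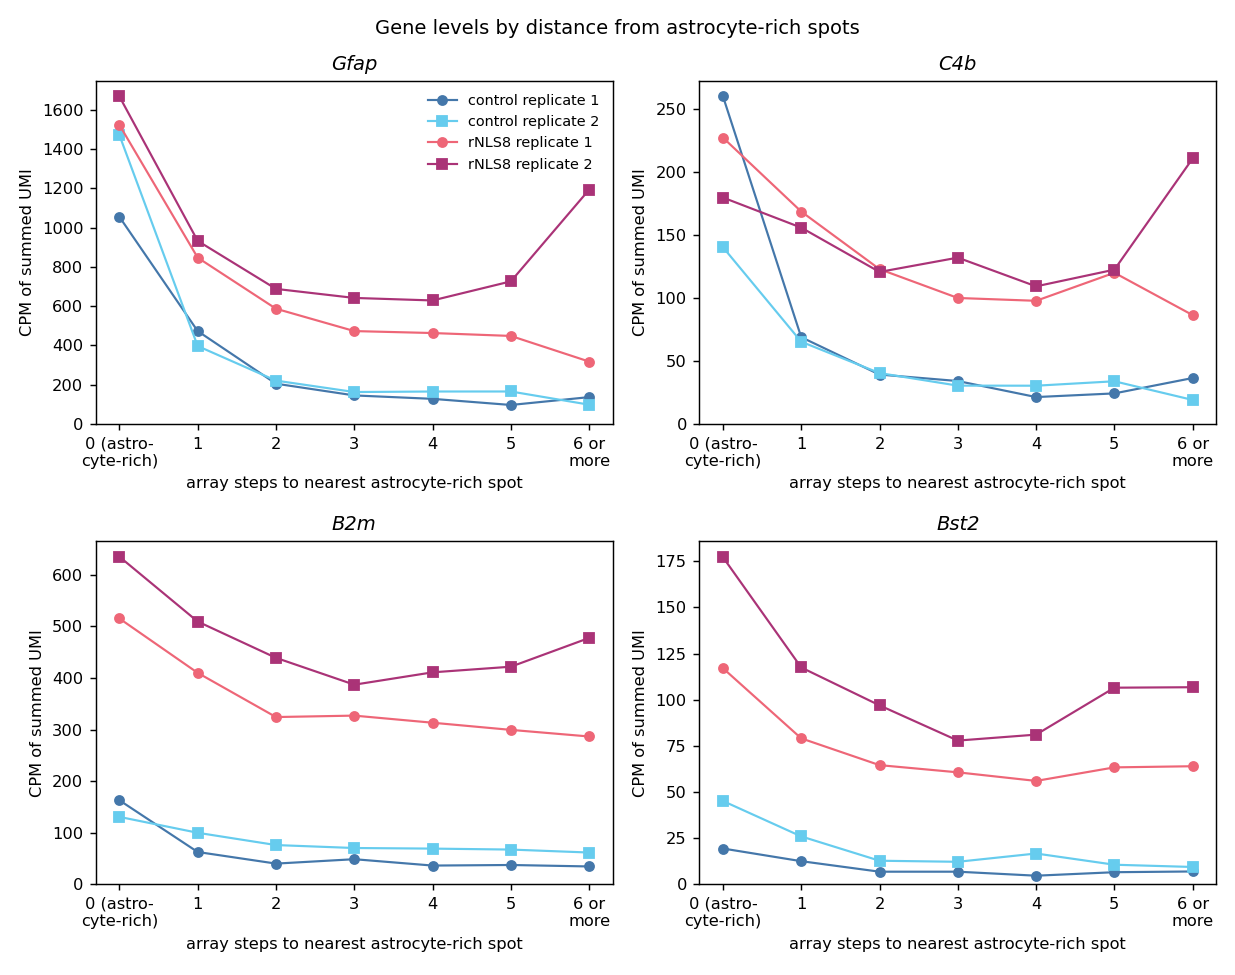
CPM of summed UMI for Gfap, C4b, B2m and Bst2 by array steps to the nearest astrocyte-rich spot (0 is the astrocyte-rich spots), 1 line per section. Gfap at 0 steps spans 1055 to 1667 CPM, while at 2 steps the controls are at 206 and 221 and the rNLS8 sections at 587 and 688 CPM.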

How the data were processed

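Visium counts of 4 mouse brain sections were used as deposited. Per the file headers the authors' matrices come from Space Ranger 2.1.0, and per the submitters' processing notes the build was mm10. The deposited matrices hold raw UMI counts for 19465 genes per spot under tissue; the probe set is not stated in them. The deposited score, Moran's I per gene, was copied as given. Array barcodes mark positions, so sections share them by design (1827 in all 4).

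The 5 selecting genes and the 31 gene lists were chosen with earlier results of these data known. UMI were summed per section over astrocyte-rich and over remaining spots, since spots are not replicates. edgeR 4.0.16 (R 4.3.3; quasi-likelihood, trimmed-mean normalisation, default filter on low counts, Benjamini-Hochberg adjustment over all genes tested) compared rNLS8 with control and, with section as a block, the effects in both kinds of spots. DESeq2 1.42.0 and limma 3.58.1 (prior count 2) served as alternatives, and scripts were tested on simulated data. Over member sums, chi-square per degree of freedom between sections was 1.77 to 3.37, so no libraries were duplicates.

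Genes were named by these rules: the 10 largest rises and falls among genes that passed, without overlap and with a mean of at least 10 CPM, filled by smallest p where fewer passed; the 5 largest differences each way; passing genes of a list with examples of high level; and, against the remaining spots, the 20 largest and 10 lowest ratios that hold in all 4 sections with at least 50 counts. For the lowest ratios an expected count of 20 was added after seeing values, because 8 of the 10 first found had a section at 0. Doublets were not called, as spots hold several cells. Some genes that these rules name are not reported here.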

Additional observations from a re-analysis of the deposited data

Results flagged for a closer look

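The rNLS8 effect differed between astrocyte-rich and remaining spots in edgeR's test of the difference itself for 8 genes, of which 7 are given. On the log2 scale the effect in the astrocyte-rich spots minus that in the remaining spots was -1.83 for C4b, -1.79 for Eln, -1.64 for Gfap and -0.76 for Vim, and 0.69 for Ccn3, 0.85 for Nptx1 and 1.10 for Alcam. For each of these 7 genes the log2 ratio of astrocyte-rich over remaining spots in the 2 rNLS8 sections did not overlap that in the 2 controls. The genes were chosen by the test of this same difference, so the lack of overlap is no further support. The share of all genes without such overlap was not counted.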

How the results depend on the processing

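The count of genes that passed between rNLS8 and control in the astrocyte-rich spots was 21. It was 11 with DESeq2, 48 without a filter on low counts, 11 with a replicate block, 6 and 85 with the top 2% and 5% of spots, 12, 13 and 12 without Myoc, Aqp4 or Gja1 in the selection, 3 without spots on the meningeal line and 0 within 2 steps of that line. Leaving out 1 section, which assumes that the lone section varies like the other group, gave 3 to 330. For the difference between both kinds of spots the count was 8. It was 1 with DESeq2, 13 with the top 5%, 14 with a common threshold, 17 without Gja1, 5 without spots on the meningeal line, 5 against adjacent spots, 0 against spots next to the meningeal line, 0 with bias-adjusted dispersions, 5 with limma and 3 to 21 without 1 section. Ccn3 reversed to -0.074 without Gja1 and -0.24 without spots on the meningeal line. The causes were not tested. The bias-adjusted dispersions, limma and the meningeal line were chosen after seeing the data.

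Of 493 values of 24 named genes between the groups, none reversed, 148 no longer passed and 9 newly passed. The mean difference in the share of spots at the tissue border kept its sign in all 10 alternatives. Counting inner holes could not change it, since no section had any. Within 2 steps of the border the mean difference was -0.94 percentage points. There the astrocyte-rich spots had the higher share in 2 sections (exact permutation test over paired sections, p = 0.5), so the order did not hold by section. Same-numbered sections did not deviate together over the 7517 tested genes (correlation -0.04). Single genes can still follow the number, as H2-D1 did with 249, 0, 986 and 1 UMI in the remaining spots. The labels state no pairing, so the replicate block, which left 11 and 9 genes, is no paired analysis. By the labels the replicate number coincides with sex, so the block cannot tell these apart. Restricting members to 2 steps from the tissue border was not run, because control replicate 1 had no such spot. Depth limits genes such as Gnrh1, with 18 counts in all.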
